A study of Oncorhynchus mykiss with 15 samples.

Results

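In preparations labelled as mature fat cells of rainbow trout, 109 genes formed a staircase across the fat depots. Each was lowest in visceral fat, higher in subcutaneous fat and highest in intramuscular fat. They were chosen by their measured levels among 25695 genes with enough counts to test, out of 64494 in the table. A gene was taken when its lowest subcutaneous library exceeded 2 times its highest visceral library, its lowest intramuscular library exceeded 2 times its highest subcutaneous library, and its mean intramuscular level was at least 10 CPM (counts per 1000000, of a library, here with TMM factors that adjust for library composition). The order of the depots, the absence of overlap and the size of the differences therefore follow from the choice. They are given as descriptions without tests.

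The RNA came from adult Oncorhynchus mykiss, all untreated and kept in fresh water at 15 °C with the same hours of light. They were fed a commercial diet and fasted for 24 h before dissection. The groups were visceral adipose tissue (VAT), which surrounds the internal organs, subcutaneous adipose tissue (SAT), which lies under the skin, and intramuscular adipose tissue (IMAT), which lies inside the muscle, with 5 libraries each. Adipocytes were freed with collagenase type II and by mechanical means, and ribosomal RNA was depleted. Which fish lies behind each library, whether fish were pooled, and their strain and sex are not in the labels.

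Mature adipocytes store triglyceride in lipid droplets and release it as fatty acids when other tissues need fuel. In trout, as in other fish, fat is laid down around the viscera, under the skin and between the muscle fibres, and these sites differ in their neighbouring cells. The files give Ensembl identifiers without gene names, and none of the 64494 identifiers was found in the supplied RefSeq gene table. The roles of the 109 genes are therefore not given, and the identifiers of only 2 are printed. Neither the adipocyte label nor the presence of muscle, skin, blood or other cells could be checked by marker genes. In whole preparations like these, fewer cells of a type and less RNA per cell cannot be told apart.

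Library totals ran from 5872244 to 9414223 counts in VAT, from 4203986 to 7243006 in SAT and from 2413951 to 4199494 in IMAT. A floor of 3 counts stood for 0.276 to 0.461 CPM in VAT and for 1.07 to 1.43 CPM in IMAT. IMAT replicate 2 stood apart. It had the 4199494 counts, against at most 2655266 in the other IMAT libraries, and a TMM factor of 0.501, against 0.894 to 1.14. That factor raises its CPM relative to its plain share of counts, so values of single genes in that library are also given scaled by the library total alone.

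The 109 genes together took a trace of the RNA counts in VAT and a large part in IMAT. Their share of all counts was 0.00612% in VAT replicate 1, 0.0131% in replicate 2, 0.0095% in replicate 3, 0.0183% in replicate 4 and 0.0145% in replicate 5. In SAT replicates 1 to 5 the share was 0.256%, 0.160%, 0.173%, 0.1003% and 0.212%. In IMAT replicates 1 to 5 it was 6.61%, 12.6%, 8.82%, 9.56% and 6.09%. No library of one depot came near those of the next, which follows largely from the rule applied to each gene. Within each depot the highest share was no more than 3 times the lowest. For VAT the mean was 0.0123% ± 0.00468 (SD, n = 5), for SAT 0.180% ± 0.0583 and for IMAT 8.73% ± 2.61. Without IMAT replicate 2 the IMAT mean was 7.77%.

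**Figure D1:**
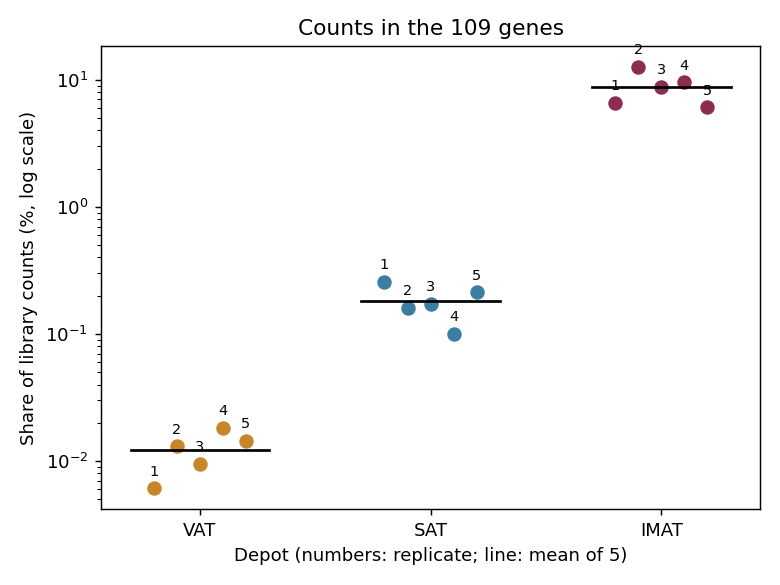
Share of each library's counts that fell on the 109 genes, in percent on a log scale, with 1 numbered point per library and a line at the mean of each depot. The points lie between 0.00612 and 0.0183% in VAT, between 0.1003 and 0.256% in SAT and between 6.09 and 12.6% in IMAT.

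The set included some of the genes with the most counts in IMAT. The rule used IMAT levels, so this describes the set and is not a finding about it. CPM values are not corrected for transcript length, so the places that follow order genes by counts and not by molecules. Of 101 tested genes with a mean of at least 1000 CPM in IMAT, 16 were among the 109, or 15.8%, and of 1396 genes with at least 100 CPM, 71 were, or 5.09%. The 2 with the most IMAT counts held places 2 and 3 among all tested genes in IMAT, places 220 and 838 in SAT, and places 8416 and 13900 in VAT. These 2 made up 47.8 to 54.2% of the counts of the whole set in each IMAT library, 23.1 to 43.3% in SAT and 6.04 to 33.8% in VAT. The make-up of the set thus differed between depots as well as its total. These 2 were picked by their IMAT level, which favours a larger share in IMAT.

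ENSOMYG00000060349 had the highest IMAT level of the 109. Its CPM in VAT replicates 1 to 5 was 2.85, 11.8, 15.1, 38.8 and 22.4. In SAT the corresponding values were 871.4, 419.2, 559.2, 131.3 and 327.3 CPM. In IMAT they were 22620, 71243, 27973, 26646 and 19512 CPM. VAT replicate 4 and SAT replicate 4 came closest to each other, at 38.8 and 131.3 CPM, and IMAT replicate 2 stood far above the other IMAT libraries. The means of ENSOMYG00000060349 were 18.2 ± 13.5, 461.7 ± 276.8 and 33599 ± 21308 CPM (SD, n = 5) in VAT, SAT and IMAT, which is 25.4-fold from VAT to SAT and 72.8-fold from SAT to IMAT. Scaled by the library total alone, without a TMM factor, its IMAT values were 35425 CPM in replicate 2 and 21317 to 25355 in the others, and the IMAT to SAT ratio was 55.0. Without IMAT replicate 2 that ratio was 52.4 on the TMM scale.

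The member ranked 2 by IMAT level, whose SAT libraries held 62.2 to 247.9 CPM, repeated this profile. Its VAT values were 0.745, 3.73, 6.52, 21.1 and 8.40 CPM in replicates 1 to 5, and its IMAT values were 11672, 49785, 20567, 22658 and 9639 CPM. Replicate 4 was again the highest VAT library and replicate 2 the highest IMAT library. Scaled by the library total alone, IMAT replicate 2 had 24755 CPM of the rank 2 gene and the others 10920 to 21561. The ratio of the rank 1 to the rank 2 gene was 1.84 to 3.83 in the VAT libraries, 2.11 to 3.52 in SAT and 1.18 to 2.02 in IMAT, so both genes did not rise by the same factor.

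Ranks 3 to 6 also averaged 2764 to 9038 CPM in IMAT. The rank 3 gene had the largest rise of the set from SAT to IMAT, 201.6-fold, with 16.6 to 67.3 CPM in SAT and 3707, 18798, 5652, 12722 and 4309 CPM in IMAT replicates 1 to 5. By the library total alone this rise was 147.6-fold, and IMAT replicate 4 was the highest with 12106 CPM, against 9347 in replicate 2. For the rank 4 gene the VAT values were 0.621, 0.777, 1.38, 9.12 and 1.87 CPM, and the rank 5 gene had 0, 0.777, 0.989, 6.81 and 1.77 CPM. In both, VAT replicate 4 was several times above the other VAT libraries, and without it the SAT to VAT ratio of the rank 4 gene rose from 24.8 to 58.9 and that of the rank 5 gene from 33.0 to 77.2. The rank 6 gene differed from these in VAT, where replicates 2 and 4 were nearly equal at 3.57 and 3.60 CPM. Its IMAT values ran from 663.9 to 8145 CPM, the widest relative range among the IMAT values of the 109 on the TMM scale (12.3-fold), and from 752.1 to 4050 CPM by the library total. Without IMAT replicate 2 the IMAT to SAT ratio fell from 102.2 to 55.7 for rank 4, from 71.6 to 40.4 for rank 5 and from 141.3 to 72.5 for rank 6. With all libraries, scaling by the library total gave ratios of 68.8, 48.3 and 95.1 for these genes, and IMAT replicate 2 remained their highest library, with 9807, 6672 and 4050 CPM.

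**Figure D2:**
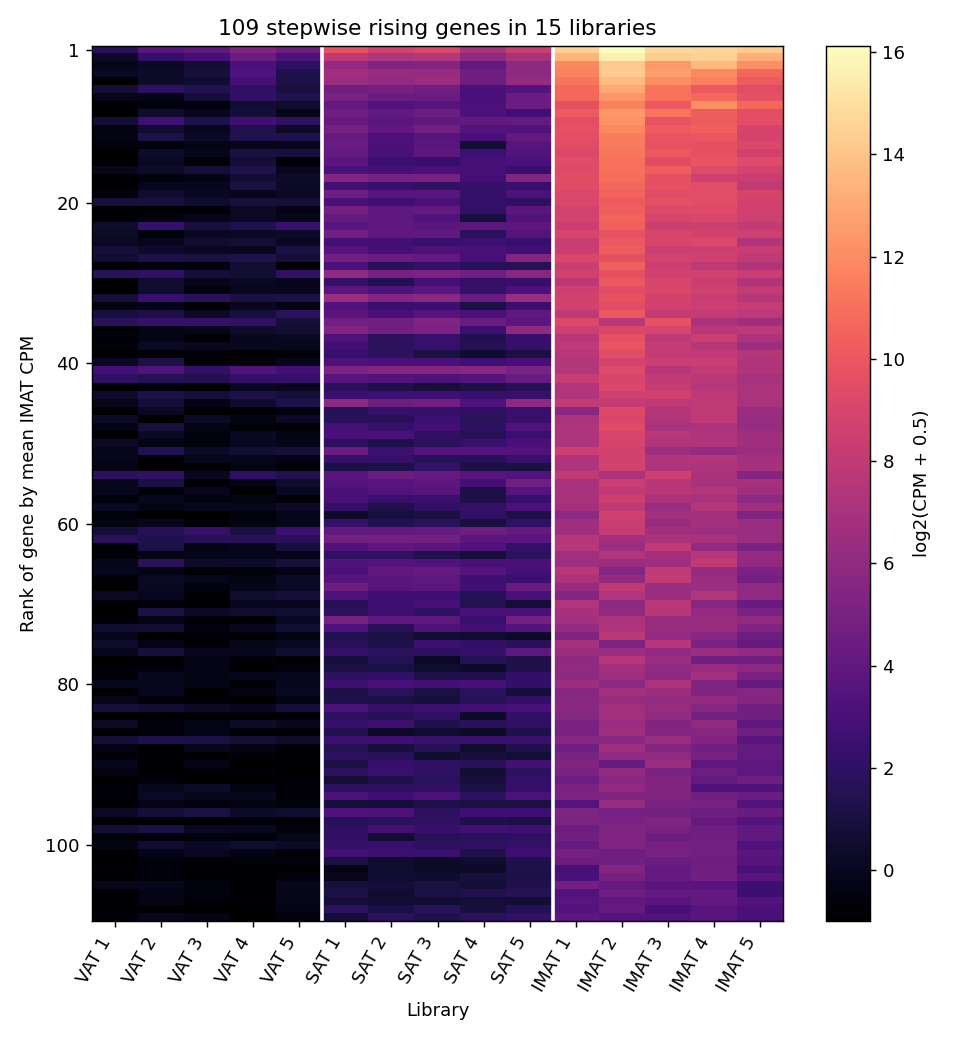
Level of each of the 109 genes (lines, ordered by mean IMAT CPM from the top) in each of the 15 libraries (columns), as log2(CPM + 0.5), with white bars between depots. Every line brightens from VAT to SAT and again to IMAT, as the rule demands. On this TMM scale IMAT replicate 2 is the brightest column for 83 genes, and SAT replicate 4 is darker than its neighbours in the upper lines.

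ENSOMYG00000000806, rank 29, was chosen because the narrower of its margins was the widest among the 56 members with a count in every VAT library (6.82 times from VAT to SAT and 5.50 times from SAT to IMAT). Other members had a wider margin on one side. Its VAT values in replicates 1 to 5 were 2.85, 3.42, 1.29, 1.03 and 3.54 CPM. SAT held 62.1, 30.01, 35.6, 24.2 and 49.3 CPM of it. IMAT held 401.6, 854.8, 404.5, 401.0 and 341.6 CPM. Here VAT replicate 4 was the lowest VAT library, unlike in the first 5 genes. The means of ENSOMYG00000000806 were 2.43 ± 1.19 CPM (SD, n = 5), 40.2 ± 15.4 and 480.7 ± 210.8, so its 16.6-fold rise from VAT to SAT and 11.9-fold rise from SAT to IMAT were of similar size. How far IMAT replicate 2 stood above the other IMAT libraries depended on the scaling. Scaled by the library total alone, it was still the highest, with 425.1 CPM against 359.0 to 386.9 in the other 4 IMAT libraries. The IMAT to SAT ratio was then 9.03.

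The size of the steps varied widely from gene to gene. From VAT to SAT the ratio of means ran from 3.60-fold to 145.2-fold with a median of 12.9-fold, and from SAT to IMAT it ran from 4.26-fold to 201.6-fold with a median of 28.0-fold. The medians were 3.69 and 4.81 on the log2 scale, where those of all tested genes at 10 CPM or more in IMAT were -0.015 and 0.0088. The step into IMAT was the larger one for 81 genes and the step into SAT for 28. Both differed by less than 1 on the log2 scale for 36 genes, the IMAT step was larger by 1 or more for 57, and the SAT step was larger by 1 or more for 16. SAT therefore lay at a median of 0.432 of the way from VAT to IMAT on the log2 scale (0.235 to 0.731). All these numbers are on the TMM scale. By the library total alone, the median log2 steps were 3.68 into SAT and 4.36 into IMAT. Without IMAT replicate 2 the median step into IMAT was 4.57 on the TMM scale. The numbers of genes by larger step were not recounted in these settings.

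**Figure D3:**
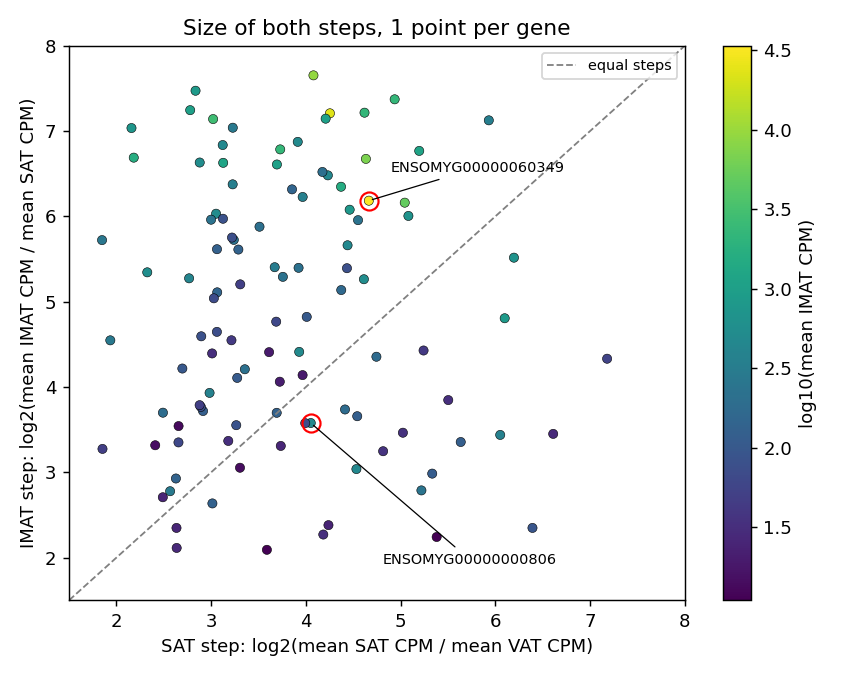
Log2 ratio of the SAT to the VAT mean (horizontal) against log2 ratio of the IMAT to the SAT mean (vertical) for each of the 109 genes, coloured by log10 of the mean IMAT CPM, with a dashed line where both steps are equal. Of the points, 81 lie above the line and 28 below it, and the genes with the highest mean IMAT CPM sit high on the vertical axis. The IMAT mean enters both the colour and the vertical axis, so that relation is partly built in. Red rings mark the genes named in the plot.

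Genes with more counts in one depot tended to have more in the next. Across the 109 genes, log2 levels in VAT and SAT were related (Pearson r = 0.791, Spearman rho = 0.793), as were those in SAT and IMAT (r = 0.760, rho = 0.703). These values describe genes measured in the same 15 libraries, which are not independent replicates, and the rule bounds each level by the one below it.

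Genes at the ends of the range of step sizes show what uneven steps look like. The rank 20 gene was the most uneven toward IMAT, with 0.890 to 1.41 CPM in VAT, 3.22 to 7.69 in SAT and 553.5, 1177, 810.5, 693.1 and 448.7 CPM in IMAT replicates 1 to 5. It rose 4.47-fold and then 131.3-fold. By the library total alone its highest IMAT library was replicate 3, with 719.3 CPM against 585.1 in replicate 2. The rank 72 gene was the most uneven toward SAT, at 0.124, 0.311, 0.0989, 0 and 0.560 CPM in VAT replicates 1 to 5, and 29.5, 14, 14.9, 4.48 and 29.0 CPM in SAT. Its IMAT values were 108.7, 136.0, 80.5, 80.1 and 62.6 CPM, so that it rose 84.1-fold and then 5.09-fold. The first of these folds rests on 10 VAT counts (pooled ratio 77.4, exact 95% counting interval 41.8 to 162) and was 137.8 without VAT replicate 5. By the library total alone, IMAT replicate 2 was its lowest IMAT library, with 67.6 CPM. The smallest step into SAT belonged to the rank 44 gene, at 3.60-fold, with VAT libraries at 0.869 to 1.86 CPM and SAT libraries at 4.55 to 5.63 CPM. It went on to 136.0 to 408.3 CPM in IMAT, 52.8-fold above SAT, and IMAT replicate 3 was its highest library.

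Low counts in VAT limit how well the first step is known. In all 5 VAT libraries together the members had a median of 19 counts (1 to 794), against 165 in SAT and 2103 in IMAT. At least 1 VAT library held 0 counts for 53 members, and 27 had fewer than 10 VAT counts in total, 8 of them 3 or fewer. The largest step into SAT, 145.2-fold for the rank 84 gene, rests on 1 VAT count, in replicate 5, against 81 counts in SAT. Its pooled ratio of SAT to VAT was 114.8 with an exact 95% counting interval of 20 to 4590, which covers counting error only. ENSOMYG00000060349 had more counts, 794 in VAT and 14137 in SAT, and its pooled ratio was 25.2 (23.5 to 27.1). This interval too covers counting error only and not the spread between libraries. When 1 library at a time was left out, its ratio of SAT to VAT means ran from 19.7 to 35.4. All 109 had counts in every SAT and IMAT library, as the rule requires.

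The rule's margins were set by single libraries. The lowest SAT library exceeded the highest VAT library by a median of 3.19 times (2.02 to 18.3), and the lowest IMAT library exceeded the highest SAT library by a median of 8.36 times (2.00 to 59.2). The second margin was above 10 times for 51 members and the first for 2. Just inside the rule was the rank 109 gene, with the lowest IMAT mean of the set at 11.01 CPM, where the lowest IMAT library had 7.60 CPM and the highest SAT library 3.79, a margin of 2.004. The other members next to the limit both had a SAT margin of 2.02. Just outside were genes with a SAT margin of 1.98, an IMAT margin of 1.98 and a SAT margin of 1.96. Genes on either side of the limit thus differed little in these margins.

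**Figure D4:**
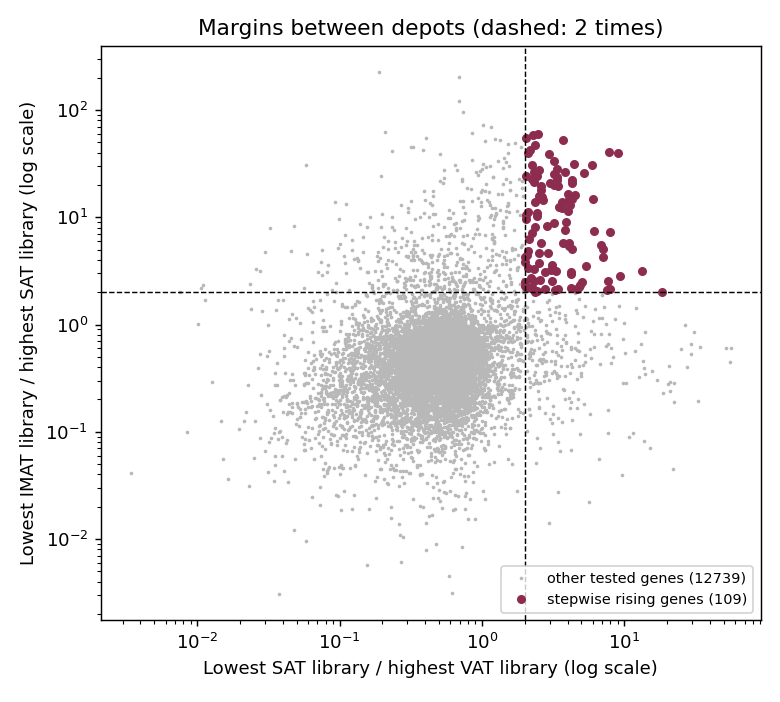
Lowest SAT library over highest VAT library (horizontal) against lowest IMAT library over highest SAT library (vertical), both on log scales, for genes with at least 10 CPM in IMAT and a count in each of these libraries. The 109 chosen genes (dark) fill the corner beyond 2 times on both axes (dashed lines), and the other 12739 genes (grey) lie outside it.

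Each margin alone was met by more genes than both together. Of the 25695 genes, 526 (2.05%) met the SAT margin and 716 (2.79%) met the IMAT margin, and 109 (0.424%) met both and the IMAT minimum. The minimum of 10 CPM removed 0 genes that met both margins. Of 642 genes that met the IMAT margin and the minimum, 533 did not meet the SAT margin. Those 533 had a median IMAT mean of 39.6 CPM, against 184.5 CPM for the 109. The rule that split these sets used SAT and IMAT levels, so this describes them and is not a finding. The mirrored rule, falling from VAT over SAT to IMAT with a VAT minimum of 10 CPM, was met by 8 genes (0.0311%). Its lowest depot is IMAT, which had the fewest counts per library, so the 8 and the 109 were not found on equal terms.

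In IMAT, and less clearly in SAT and VAT, the 109 genes tended to be high or low in the same libraries, an ordering the rule does not fix. Deviations were taken on log2(CPM + 0.5) from the mean of the depot. In IMAT the median deviation was -0.22, 1.04, 0.10, -0.13 and -0.86 in replicates 1 to 5. That of all tested genes at 10 CPM or more in IMAT stayed between -0.054 and 0.081, which the TMM scaling largely sets. Replicate 2 was the highest IMAT library for 83 of the 109, and for 26.7% of all tested genes. Replicate 5 was the lowest for 93 of the 109, and for 18.1% of all. Scaled by the library total alone, replicate 2 was the highest for 49 of the 109 (6.54% of all genes) and replicate 5 the lowest for 54 (6.56%). The same libraries thus led on both scales, in fewer genes. By the library total, replicate 2 was also the lowest IMAT library for 19 of the 109 (57.9% of all genes), against 0 on the TMM scale.

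In SAT, replicate 4 was low and the place of the highest library depended on the scale. Median deviations in SAT were 0.34, 0.05, 0.09, -0.33 and 0.15 in replicates 1 to 5. Replicate 4 was the lowest SAT library for 47 of the 109 (19.5% of all tested genes) on the TMM scale, and for 40 (12.7%) by the library total. Replicate 1 was the highest for 49 (17.8% of all) on the TMM scale and for 29 (13.9%) by the library total, where replicate 5 was the highest for 53 (38.2%). In VAT the medians were -0.30, 0.15, -0.13, 0.10 and 0.17. Replicate 1 was alone at the lowest VAT value for 43 members (16.1% of all). The highest VAT library was replicate 4 for 33 (21.2%), replicate 2 for 29 (16.2%) and replicate 5 for 26 (32.6%). Scaled by the library total, replicate 2 was the highest for 35 (17.2%), replicate 5 for 29 (36.4%) and replicate 4 for 26 (18.2%). Low counts make the order in VAT less certain than that in IMAT.

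**Figure D5:**
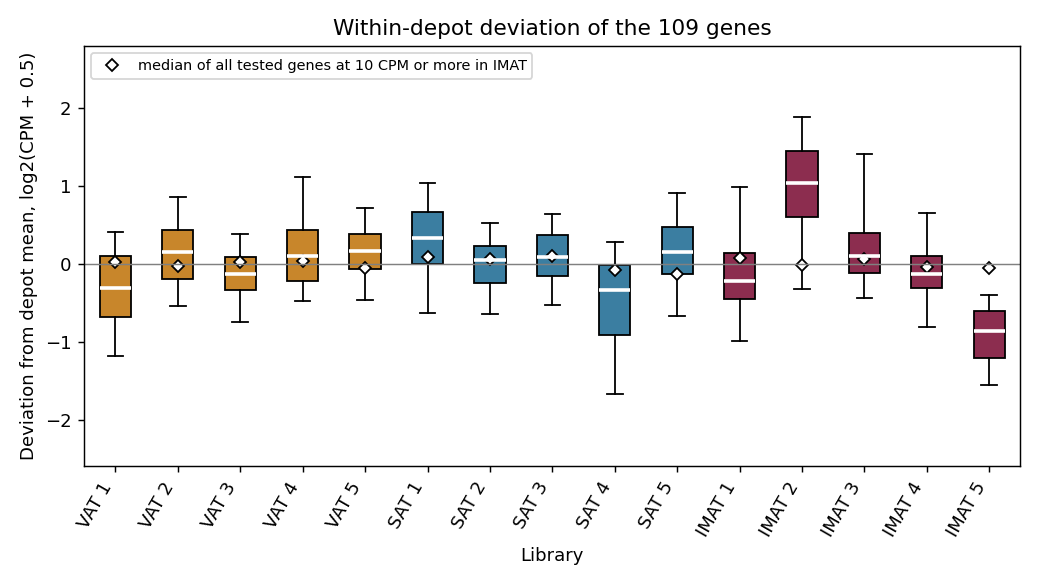
Deviation of the 109 genes from their depot mean in each library, on log2(CPM + 0.5), with boxes from the lower to the upper quartile, white medians and whiskers from the 5th to the 95th percentile. Open diamonds give the median of all tested genes with at least 10 CPM in IMAT, which TMM scaling holds near 0. The boxes of IMAT replicates 2 and 5 sit at medians of 1.04 and -0.86.

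Genes chosen from 14 libraries mostly kept their margins in the library left out. The rule was applied to 14 libraries at a time, and the genes chosen were then looked up in the library left out. With an IMAT library left out, 108 to 139 genes were chosen, and in that library 80.6 to 100% of them exceeded 2 times the highest SAT value. The lowest of these shares belonged to IMAT replicate 5. Among all genes at 10 CPM or more in IMAT the same held for 6.18 to 12.2%. With a SAT library left out, 79 to 94.2% of 121 to 143 chosen genes kept both margins in it, against 1.95 to 2.86% of all such genes, and SAT replicate 4 gave the lowest share. With a VAT library left out, 80.7 to 95.8% of 118 to 140 chosen genes kept the margin, against 5.39 to 11.2% of all. The left-out library was scaled together with the others, and it is unknown whether it came from a different fish. Of the 109 members, 107 to 109 were among the genes chosen each time. Leaving out a library cannot narrow a margin, so only the scaling, the count filter or the IMAT minimum could remove a member. Genes that kept their margins met them in all 15 libraries, apart from the scaling, so they were largely the 109 again. The rule itself was set with earlier results of these data known, so these shares are descriptions and not independent support.

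With edgeR's quasi-likelihood test at a Benjamini-Hochberg adjusted p under 0.05, 5.76% of all tested genes were called higher in SAT against VAT. In IMAT against SAT 7.35% were called higher, and in IMAT against VAT 13.1%. All 109 genes were called higher in each of these comparisons. The rule used these contrasts, so nothing is read from that count. The fitted log2 fold changes ran from 1.85 to 6.20 for SAT against VAT, from 2.09 to 7.65 for IMAT against SAT and from 4.71 to 12.2 for IMAT against VAT. These comparisons share libraries. For SAT against VAT, 83 of the 109 were called higher when only these depots were fitted. The count filter was then redone without IMAT, and members it dropped count as not called. That fit called 2008 genes in either direction, against 2090 with all depots fitted. Without the count filter, with all depots fitted, 108 members were called higher and 2019 genes were called in either direction.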

How the data were processed

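The deposited table holds raw counts per gene for 15 libraries; per the submitters' processing notes the authors used Trimmomatic 0.30, STAR 2.5.2b, featureCounts (Subread 1.5.2) and DESeq2 1.6.3. Build, annotation, strand setting and multi-mapping rule are not stated in the sources used, so counts of near-identical gene copies and of overlapping genes are uncertain.

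Genes were kept with filterByExpr by depot (minimum count 10, minimum total 15), which left 25695 genes with 99.0% of the counts, and scaled with TMM factors in edgeR 4.0.16 (R 4.3.3). Of the 109 members, 109 reached the filter's 1.77 CPM in 5 IMAT libraries, 79 in 5 SAT libraries and 4 in 5 VAT libraries. The quasi-likelihood test was fitted to the 15 libraries with depot as its 1 term, robust dispersion and Benjamini-Hochberg adjustment over all genes tested, and was tested on simulated data. DESeq2 1.42.0 was an alternative.

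The labels do not tie libraries to fish, so p-values measure the spread between libraries, which may be technical. The members, lists and rules were chosen with earlier results of these data known. Genes shown are the first 6 by IMAT mean, ENSOMYG00000000806 by its margins, and members with extreme steps or next to the rule's limit. The extremes were chosen after their values were seen. Marker lists for adipocytes, muscle and other cells need gene names and gave no result.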

Additional observations from a re-analysis of the deposited data

Results flagged for a closer look

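Among 45 sets of 5 libraries, 9 had an end value set off from its neighbour by more than 0.71 of the spread from lowest to highest. That limit flags about 1 set in 20 by chance only for normally distributed values, which was not checked here. Some of the genes were also chosen after their values were seen, and the sets are linked, since they come from the same libraries. The number of flags is therefore not set against chance. IMAT replicate 2 stood above the other IMAT libraries for ENSOMYG00000060349 (71243 CPM against 19512 to 27973), for rank 4 (19723 against 1662 to 6400), for rank 5 (13418 against 1168 to 4303), for rank 6 (8145 against 663.9 to 2229) and for ENSOMYG00000000806 (854.8 against 341.6 to 404.5), and in its total (4199494 counts against 2413951 to 2655266). VAT replicate 4 was set off upward for rank 4 (9.12 CPM against 0.621 to 1.87) and rank 5 (6.81 against 0 to 1.77). Scaled by the library total alone, IMAT replicate 2 had 35425 CPM of ENSOMYG00000060349 (21317 to 25355 in the others), 9807 of rank 4 (1883 to 5680), 6672 of rank 5 (1324 to 3819), 4050 of rank 6 (752.1 to 1979) and 425.1 of ENSOMYG00000000806 (359.0 to 386.9). VAT replicate 5 held the only VAT count of rank 84 (0.0933 CPM), so that set was certain to be flagged.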

How the results depend on the processing

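The number of genes meeting the rule followed the margin, with 347 at no overlap (1 time), 166 at 1.5 times and 45 at 3 times in place of 109 at 2 times. It was 107 with DESeq2 size factors (104 shared with the 109), 113 with upper-quartile factors (103 shared), 96 with library totals (89 shared), 98 without the count filter (98 shared), 81 at equal depth (65 shared) and 84 with an IMAT minimum of 50 CPM. Leaving out 1 library at a time gave 108 to 143, and 106 members were chosen every time. That last number follows largely from the rule, since leaving out a library cannot narrow a margin on a fixed scale. The mirrored rule gave 8 genes, with 11 by library totals, 5 at equal depth, 3 at 3 times, 42 at no overlap and 13 without IMAT replicate 1. Scaling by library totals moved the median log2 ratio of IMAT over SAT of all genes at 10 CPM or more from 0.0087 to -0.26, and the members' median was then 4.36 in place of 4.81. As TMM CPM, the members' mean share in IMAT was 11.5% in place of 8.73%; their sum in IMAT replicate 2 was 253429 CPM on that scale (53746 to 100434 in the others) and 126880 by library totals over the tested genes (61538 to 96963). Counts of called genes in this section take both directions, and counts of called members only the higher ones. The rule used these contrasts, so the members' counts are descriptions. When tested for more than a log2 fold change of 1, called genes fell from 2090 to 896 for SAT against VAT, with 102 members called. They fell from 2716 to 1079 for IMAT against SAT (107 members) and from 5442 to 2581 for IMAT against VAT. At equal depth 1577 genes and 96 members were called for SAT against VAT. With the replicate block the counts of called genes were 2460, 2819 and 5879, and the members called stayed at 109 in each. Deviations from the depot mean over all tested genes, here on log2(CPM + 2), were compared between same-numbered libraries of different depots. They correlated at -0.153 to 0.592 over 15 pairs, above 0.1 in 9, and 6 correlated best with their own number. The 9 were all the pairs of replicates 1, 3 and 5, and those of replicates 2 and 4 lay from -0.153 to 0.0489, so a shared fish was not shown for every number and remains unknown. Low counts limit VAT most, where the members had a median of 19 counts over 5 libraries, although VAT had the highest mean library total.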
